A study of Homo sapiens with 4 samples.

Results

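The genes described here were 38 components of the autophagy machinery and its transcription factors, of the 48162 genes listed for MDA-MB-231 cells given MGH-CP1 or vehicle. They were taken from the table by symbol and grouped by the step at which their proteins act: the ULK initiation complex (5 genes), the class III phosphatidylinositol 3-kinase (PI3K) complex (4), phagophore expansion (4), the conjugation enzymes (11), the ATG8 family (5), the cargo receptors (5) and the MiT/TFE transcription factors with folliculin (4). Of these genes, 37 were found under the symbol as written and ATG101 by its identifier, ENSG00000123395, under the older name C12orf44. A second row for FLCN held 0 to 6 fragments per library and was not used.

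MDA-MB-231 is an established human breast cancer line of mesenchymal character, and MGH-CP1 blocks the palmitoylation of TEAD, the DNA-binding partner of the coactivators YAP and TAZ. One group of 2 libraries came from cells treated with MGH-CP1 and the other group of 2 from cells given vehicle control. The treatment lasted 24 h, and the dose of MGH-CP1 is 10 µM by the sample labels and 10 mM by the study's methods. RNA was measured by poly-T selected RNA-seq, and the values are FPKM, fragment numbers scaled to the length of the gene and to the library's total on listed genes.

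Autophagy encloses cytoplasm in a double membrane, the autophagosome, which then fuses with the lysosome. The ULK kinase complex starts the process, the class III PI3K complex marks the membrane with PI3P, and WIPI and ATG2 proteins read that mark and bring in lipid. A pair of ubiquitin-like conjugation systems then attach ATG8 proteins (LC3 and GABARAP) to the growing membrane, where cargo receptors such as p62 bind them. TFEB, TFE3 and MITF are related transcription factors that activate genes of lysosomes and autophagy, and the kinase mTORC1 holds TFEB and TFE3 in the cytoplasm when amino acids are plentiful. These are background facts, and neither protein levels nor autophagic flux was measured in these libraries.

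The vehicle control libraries held 25455533 and 25508824 fragments on listed genes and the MGH-CP1 libraries 17997221 and 17577930, so depth differed with the treatment. Of the 5 markers expected of this line, VIM, CD44, AXL, CAV1 and MSN, each lay at 149 FPKM or above in every library, and AXL and CAV1 fell after MGH-CP1. ESR1 and PGR, the hormone receptor genes that the line lacks, were at 0 to 0.0243 FPKM. The other 4 luminal markers, listed as genes likely to be low in this line, were CDH1 at 0.289 to 0.638 FPKM, GATA3 at 4.17 to 5.65 FPKM, EPCAM at 12.4 to 16.4 FPKM and ERBB2 at 24.7 to 28.4 FPKM, so the last 3 were not low, and none of these 3 passed the test between groups. Among 4 leukocyte markers CD3E was at 0 and PTPRC reached at most 0.0321 FPKM, while CD14 rose and LYZ, under the level filter, was at 0.180 and 0.256 FPKM with vehicle and 1.20 and 1.08 FPKM with MGH-CP1 (without the filter 0.81, adjusted p = 0.0169). The summed level of the 4 genes was 2.04 to 2.64 FPKM with vehicle and 4.40 to 5.29 FPKM with MGH-CP1. The 4 melanocyte markers TYR, MLANA, PMEL and DCT, which share MITF as a known activator, summed to 0.547 to 0.749 FPKM over all libraries with TYR at 0, and the 5 fibroblast markers summed to 2.86 to 3.67 FPKM. Whether these other-cell markers had a part in the results was not tested. In RNA from a whole culture, fewer cells of a type and less RNA per cell cannot be told apart.

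Of the 37 genes with a mean level of at least 1 FPKM over the 4 libraries, 20 rose after MGH-CP1 (54.1%) and 3 fell (8.11%) at an adjusted p under 0.05, and 14 passed in neither direction. Over all 12080 genes tested in the same fit, 27.1% rose and 23.8% fell. GABARAP lay under the level filter and was not tested. Differences are given as MGH-CP1 minus vehicle control in log2(FPKM + 1), a scale that understates changes of genes with low levels, with the standard error from limma and with p-values adjusted by Benjamini-Hochberg over the 12080 genes. The median difference was 0.23 over the autophagy genes and 0.014 over all genes, and 26 of the 37 differences were above 0. Both MGH-CP1 libraries lay above both vehicle control libraries for 23 of the 37 genes, against 39.8% of all genes tested, and below both for 7, against 37.4%. The rises were modest in size, with a median of 0.36 over the 20 autophagy genes that rose and 0.43 over all 3273 genes that rose. A difference of 0.5 or more above 0 was seen in 7 autophagy genes (18.9%) and in 10.6% of all genes, and no autophagy gene had a difference of -0.5 or beyond.

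At equal depth, with each library thinned to the total of the shallowest, 19 autophagy genes rose and 3 fell. Of all 12080 genes tested, 3169 rose (26.2%) and 2748 fell in that fit. A limma voom fit to recovered fragments called 17 higher and 6 lower, in a fit where 40.8% of all calls were rises, against 53.3% in the main fit. That fit scaled library totals by TMM factors, 0.974 and 0.973 for vehicle and 1.03 and 1.02 for MGH-CP1. The main fit used FPKM without such factors. The median difference over all genes was -0.061 in the voom fit and 0.014 in the main fit. A per-gene test without variance shared between genes called no autophagy gene in either direction after adjustment. In it 17 of the 37 had an unadjusted p under 0.05, beside 4947 of all 12080 genes tested. The labels do not say whether the libraries of a group came from separate cultures, so the p-values measure the spread between these libraries, which may be technical. The intervals of 17 of the 38 genes overlap that of another gene with a mean of 1 FPKM or more, on the other strand except for AMBRA1, and the neighbours that cover over 10% of a called gene's interval, with those of SQSTM1, ATG3, OPTN and ATG4B, are given with their values.

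**Figure D1:**
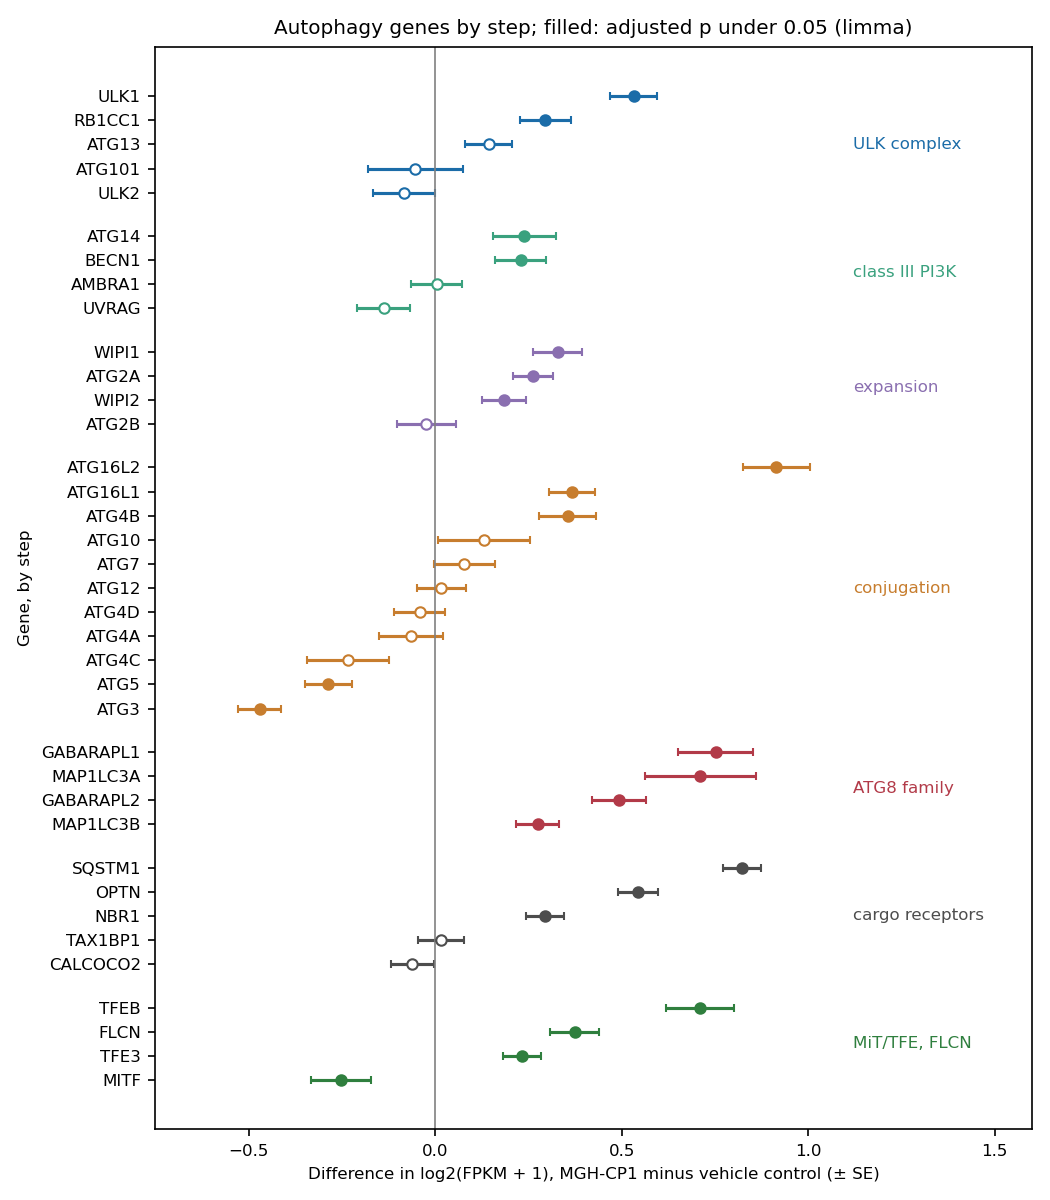
Difference in log2(FPKM + 1), MGH-CP1 minus vehicle control, for the 37 autophagy genes tested, grouped by step. Points are limma estimates, bars are ± 1 standard error, and filled points have an adjusted p under 0.05. The ATG8 family lies wholly to the right of 0 and the conjugation enzymes spread from -0.47 for ATG3 to 0.91 for ATG16L2.

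**Figure D2:**
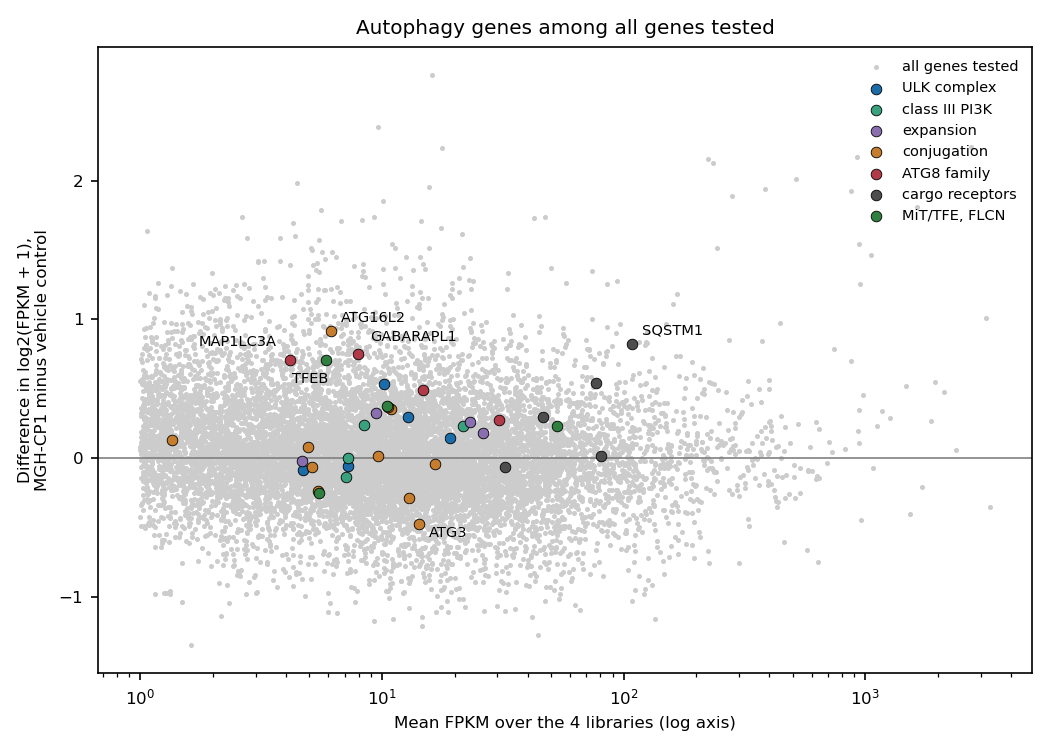
Difference in log2(FPKM + 1) against the mean FPKM over the 4 libraries on a log axis, with the 12080 genes tested in grey and the autophagy genes coloured by step. The autophagy genes have a median level of 10.4 FPKM against 10.3 FPKM over all genes tested, SQSTM1 is the farthest to the right, and all of them lie within 1 log2 unit of 0.

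Promoter sequences from RefSeq (build GRCh38.p14, 250 bases before the start to 50 after it) were matched for 34 of the 38 genes, in 46 windows of the 35116 in all. They were searched on both strands for CACGTG, the E-box that MiT/TFE factors bind, for TCACGTGA, the core of the CLEAR element, which contains CACGTG, and for GGAATG or its reverse complement CATTCC, the core recognised by TEAD. CACGTG was found in 2 of the 46 windows (4.35%) against 7.26% of all windows, TCACGTGA in 1 (2.17%) against 0.980%, and GGAATG in 8 (17.4%, from 7 genes) against 14.0%. OPTN has overlapping windows that hold the same GGAATG, at -62 or -143 depending on the start, so this site was counted for each window. The shares in autophagy promoters were thus given by few windows, and a match is a description of the letters and not a bound site. UVRAG, ATG4D, RB1CC1 and MAP1LC3A were not matched. The windows with CACGTG belonged to ATG3 and ATG14, and those with GGAATG to ULK1, BECN1, OPTN, GABARAPL2, ATG13, ATG7 and MITF. Of these, 4 are shown, by the 150 bases directly before the start on the gene's own strand. The CACGTG genes are shown because 1 fell and the other rose. ULK1 and OPTN were picked because they had the largest rises among the genes with GGAATG. Of the other genes with GGAATG, BECN1 and GABARAPL2 rose, ATG13 and ATG7 passed in neither direction and MITF fell. The first 2 lines carry CACGTG in capitals, with its first base at -18 and -21 from the start (counted as 0), and the other 2 carry CATTCC and GGAATG, from -90 and -62. ATG3 lies on the minus strand of chr3:112561963-112562112, ATG14 on the minus strand of chr14:55411831-55411980, ULK1 on the plus strand of chr12:131894472-131894621 and OPTN on the plus strand of chr10:13099932-13100081.
ATG3: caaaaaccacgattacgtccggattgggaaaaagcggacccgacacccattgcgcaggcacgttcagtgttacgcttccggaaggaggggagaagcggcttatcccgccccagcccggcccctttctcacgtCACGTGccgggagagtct
ATG14: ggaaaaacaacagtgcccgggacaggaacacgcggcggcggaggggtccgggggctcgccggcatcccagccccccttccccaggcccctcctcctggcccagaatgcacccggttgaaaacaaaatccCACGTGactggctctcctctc
ULK1: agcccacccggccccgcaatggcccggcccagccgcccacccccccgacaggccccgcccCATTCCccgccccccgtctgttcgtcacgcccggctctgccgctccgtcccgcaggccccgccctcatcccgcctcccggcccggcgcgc
OPTN: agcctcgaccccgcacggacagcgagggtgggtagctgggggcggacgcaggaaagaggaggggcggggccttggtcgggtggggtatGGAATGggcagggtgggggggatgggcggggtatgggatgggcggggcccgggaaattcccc
The ATG3 window held a further CACGTG, within TCACGTGA, whose first base lies 5 bases after the start.

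Initiation was the first step examined. In the ULK complex 2 of 5 genes rose (40%) and none fell, beside 27.1% and 23.8% of all genes. The median difference was 0.14. ULK1 (ENSG00000177169, chromosome 12, 132379196 to 132407712, hg19), the kinase that starts autophagosome formation, was at 8.12 and 8.21 FPKM in the vehicle control libraries and 12.3 and 12.2 FPKM in the MGH-CP1 libraries. The groups were well apart, and the rise was 0.53 ± 0.063 (adjusted p = 3.21e-04). Its paralog ULK2 was at 5.06 and 4.65 FPKM with vehicle and 4.63 and 4.41 FPKM with MGH-CP1, a difference of -0.084 (adjusted p = 0.429). The MGH-CP1 libraries lay just below the vehicle control libraries. The ratio of ULK1 to ULK2 level went from 1.61 and 1.77 with vehicle to 2.66 and 2.76 with MGH-CP1, without overlap, and an exact permutation test of this or any other single value cannot go below p = 0.333 with 2 libraries against 2.

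RB1CC1 (FIP200), the scaffold of the ULK complex, was at 11.6 and 11.1 FPKM with vehicle and 14.8 and 13.5 FPKM with MGH-CP1, and rose by 0.30 ± 0.068 (adjusted p = 0.00762). Without MGH-CP1 replicate 1 that difference was 0.23 and did not pass (adjusted p = 0.0582). ATG13, the adaptor that mTORC1 phosphorylates, differed by 0.14 with an adjusted p of 0.0925. ATG101, which stabilises ATG13, differed by -0.053 with a spread between vehicle control replicates of 6.55 to 8.15 FPKM, and its sign changed when either vehicle control replicate 2 (0.085) or MGH-CP1 replicate 1 (0.11) was left out.

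In the class III PI3K complex 2 of 4 genes rose (50%) and none fell, beside 27.1% and 23.8% of all genes. The median difference was 0.12. BECN1, the Beclin-1 scaffold of the complex, was at 18.9 and 21.0 FPKM with vehicle and 24.2 and 22.8 FPKM with MGH-CP1, a rise of 0.23 ± 0.068 (adjusted p = 0.0227). Its groups did not overlap but lay close together, and the call was lost without vehicle control replicate 1 (0.16, adjusted p = 0.117) or without MGH-CP1 replicate 1 (0.19, adjusted p = 0.127). BECN1 shares 38.6% of its interval with PSME3 on the other strand, a gene at 87.8 to 91.6 FPKM with vehicle and 67.6 to 69.3 FPKM with MGH-CP1. ATG14, the subunit that directs the complex to autophagosomes and whose promoter is shown above, was at 8.08 and 7.17 FPKM with vehicle and 8.66 and 9.69 FPKM with MGH-CP1, a rise of 0.24 ± 0.085 (adjusted p = 0.0450). The ATG14 call was lost without vehicle control replicate 2 (0.16, adjusted p = 0.205) and without MGH-CP1 replicate 2 (0.17, adjusted p = 0.225). UVRAG, the subunit of the endosomal form of the complex, differed by -0.14 (adjusted p = 0.140) and was lower in the limma voom fit (-0.24, adjusted p = 0.0241). AMBRA1, a regulator of BECN1, differed by 0.0036 (adjusted p = 0.969), with a sign that turned under median-ratio scaling, quantile normalization, limma voom, equal depth and without vehicle control replicate 1.

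For phagophore expansion 3 of 4 genes rose (75%) and none fell, beside 27.1% and 23.8% of all genes. The median difference was 0.22. WIPI1, a PI3P-binding protein, was at 8.08 and 8.44 FPKM with vehicle and 10.8 and 10.5 FPKM with MGH-CP1, and rose by 0.33 ± 0.066 (adjusted p = 0.00411). Its replicates were close and its groups apart, but its whole interval lies within that of PRKAR1A on the other strand, which was at 93.1 to 94.3 FPKM with vehicle and 94.2 to 105 FPKM with MGH-CP1. ATG2A, which transfers lipid into the phagophore, rose by 0.26 ± 0.054 (adjusted p = 0.00441), while its paralog ATG2B differed by -0.024 (adjusted p = 0.820). The ATG2A to ATG2B ratio was 4.34 and 4.56 with vehicle and 5.47 and 5.51 with MGH-CP1. WIPI2, which recruits ATG16L1, rose by 0.18 ± 0.059 (adjusted p = 0.0312), the least of the 20 rises. That call was lost without vehicle control replicate 1 (0.13), MGH-CP1 replicate 1 (0.20) or MGH-CP1 replicate 2 (0.17), with adjusted p values of 0.165, 0.0895 and 0.120.

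Of the 11 conjugation enzymes 3 rose (27.3%), 2 fell (18.2%) and 6 passed in neither direction, near the 27.1% and 23.8% of all genes, with a median difference of 0.017. The summed level of the 11 genes was 97.4 and 96.8 FPKM with vehicle and 99.5 and 97.4 FPKM with MGH-CP1, a ratio of 1.01 (exact permutation test, two-sided p = 0.667). ATG16L2 (ENSG00000168010, chromosome 11, 72525353 to 72554719, hg19), a homologue of ATG16L1, had the largest rise of all 37 genes. It was at 3.68 and 4.24 FPKM with vehicle and 7.96 and 8.73 FPKM with MGH-CP1. Both MGH-CP1 libraries were far above the vehicle control libraries, the rise was 0.91 ± 0.089 (adjusted p = 1.28e-04), and by size of rise it ranked 287 of all genes tested. It shares 23.6% of its interval with FCHSD2 on the other strand, at 7.72 to 8.26 FPKM with vehicle and 6.61 to 7.34 FPKM with MGH-CP1. ATG16L1, which with ATG12 and ATG5 forms the complex that places ATG8 proteins on the membrane, was at 9.07 and 9.18 FPKM with vehicle and 12.04 and 12.07 FPKM with MGH-CP1, a rise of 0.37 ± 0.062 (adjusted p = 0.00181). Its replicates agreed closely in both groups, and the ATG16L2 to ATG16L1 ratio was 0.406 and 0.462 with vehicle and 0.661 and 0.723 with MGH-CP1.

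Within the same complex ATG5 (ENSG00000057663, chromosome 6, 106632351 to 106773666, hg19) fell. It was at 14.8 and 13.8 FPKM with vehicle and at 11.5 FPKM in both MGH-CP1 libraries, a difference of -0.29 ± 0.064 (adjusted p = 0.00662). ATG12, the ubiquitin-like protein joined to ATG5, differed by 0.017 (adjusted p = 0.849), a value whose sign turned under median-ratio scaling, quantile normalization, limma voom and without MGH-CP1 replicate 1. ATG3 (ENSG00000144848, chromosome 3, 112251356 to 112280893, hg19), the E2-like enzyme that transfers ATG8 proteins to lipid, had the largest fall of the 37 genes. It was at 16.7 and 16.5 FPKM with vehicle and 11.7 and 11.8 FPKM with MGH-CP1. The groups were well apart, with a difference of -0.47 ± 0.058 (adjusted p = 3.86e-04). It shares 1.14% of its interval with SLC35A5 on the other strand, at 9.63 to 10.6 FPKM with vehicle and 8.72 to 8.84 FPKM with MGH-CP1. This is the gene whose promoter, shown above, carries CACGTG on both sides of the start.

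ATG7, the E1-like enzyme of both conjugation systems, was at 4.57 and 4.99 FPKM with vehicle and 5.09 and 5.11 FPKM with MGH-CP1, a difference of 0.078 ± 0.081 (adjusted p = 0.452) with a 95% interval of -0.11 to 0.27. The libraries did not overlap but nearly touched, and the sign turned under quantile normalization. ATG10, the E2-like enzyme for ATG12, was near the level filter at 1.24 to 1.61 FPKM and differed by 0.13 (adjusted p = 0.401), also with another sign under quantile normalization.

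The 4 ATG4 proteases, which cut ATG8 proteins before lipidation and release them from membranes, did not move as 1 group. ATG4B, the most active of them on LC3, was at 9.59 and 9.31 FPKM with vehicle and 13.2 and 11.6 FPKM with MGH-CP1, a rise of 0.36 ± 0.076 (adjusted p = 0.00547). THAP4 on the other strand, at 19.5 to 21.1 FPKM with vehicle and 14.3 to 15.3 FPKM with MGH-CP1, shares 0.647% of the ATG4B interval. ATG4C was at 6.66 and 5.26 FPKM with vehicle and 5.16 and 4.63 FPKM with MGH-CP1, a difference of -0.23 ± 0.11 (adjusted p = 0.111). Its vehicle control replicates differed more than those of ATG4B, and it was called lower in the limma voom fit (-0.35, adjusted p = 0.0192), under quantile normalization (-0.31, adjusted p = 0.0456), with the replicate number as a block (adjusted p = 0.0455) and without vehicle control replicate 2 (-0.38, adjusted p = 0.0184). ATG4A and ATG4D differed by -0.064 and -0.042, neither past the threshold, and each changed sign when a vehicle control library was left out, ATG4A without replicate 1 and ATG4D without replicate 2.

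**Figure D3:**
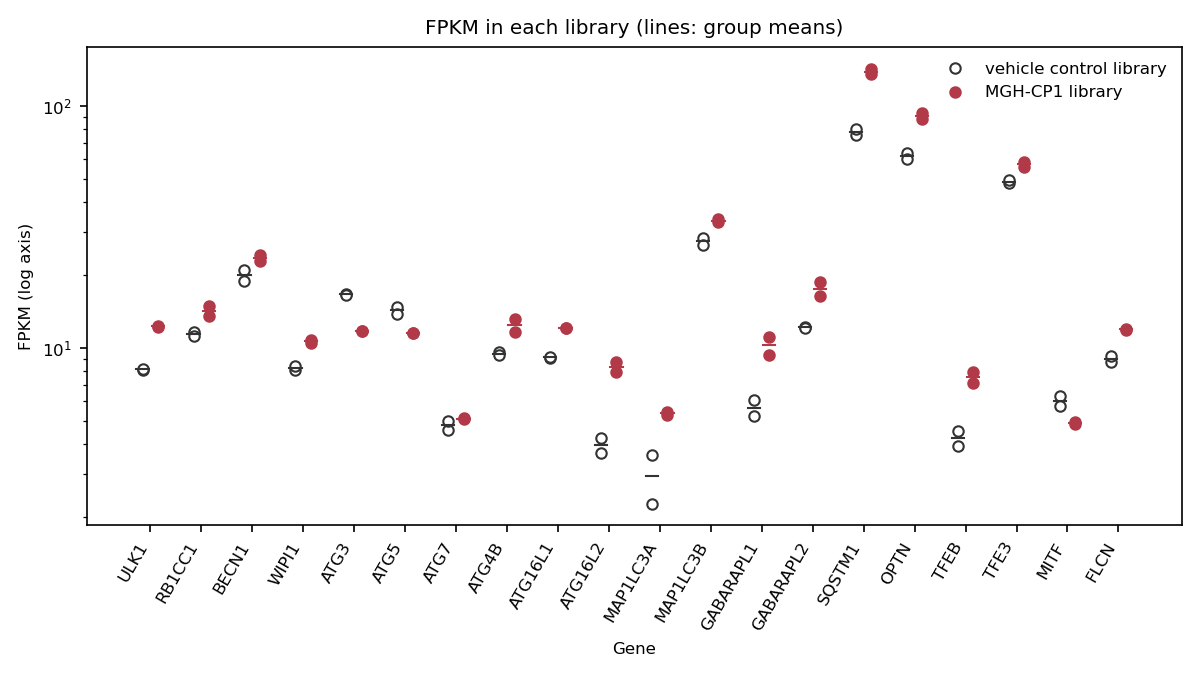
FPKM on a log axis in each of the 4 libraries for 20 autophagy genes, with open circles for vehicle control, filled circles for MGH-CP1 and short lines for group means. The groups of every gene drawn are apart, widest for ATG16L2, SQSTM1 and TFEB, and narrowest for ATG7. MAP1LC3A has the widest spread between vehicle control libraries.

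The ATG8 family rose as a whole among the genes that could be tested: all 4 passed as rises, beside 27.1% of all genes that rose. The median difference of the 4 was 0.60, and each kept its direction under every scaling tried. The summed level of the 5 genes was 49.4 and 47.8 FPKM with vehicle and 70.1 and 64.5 FPKM with MGH-CP1, a ratio of 1.38 that lies at the exact test's floor of p = 0.333. Neither MGH-CP1 library came near the vehicle range. The sum takes GABARAP at its listed level, which is uncertain. GABARAPL1 (ENSG00000139112, chromosome 12, 10365057 to 10375727, hg19) had the largest rise of the 4 tested genes in log2(FPKM + 1). By ratio of mean FPKM, MAP1LC3A was slightly ahead, at 1.82 against 1.81. GABARAPL1 was at 6.11 and 5.21 FPKM with vehicle and 11.1 and 9.36 FPKM with MGH-CP1, a rise of 0.75 ± 0.10 (adjusted p = 5.60e-04). The replicates of each group differed from each other by much less than the groups. GABARAPL2 (GATE-16) was at 12.2 and 12.1 FPKM with vehicle and 18.7 and 16.4 FPKM with MGH-CP1, a rise of 0.49 ± 0.073 (adjusted p = 9.11e-04).

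MAP1LC3B, the LC3 form most used as an autophagosome marker, had the highest level and the smallest rise of the 4 tested genes. It was at 28.5 and 26.6 FPKM with vehicle and 34.1 and 33.0 FPKM with MGH-CP1, a rise of 0.27 ± 0.057 (adjusted p = 0.00474). It shares 39.2% of its interval with FBXO31 on the other strand, at 3.61 FPKM with vehicle and 4.30 to 4.54 FPKM with MGH-CP1. MAP1LC3A was at 2.27 and 3.61 FPKM with vehicle and 5.44 and 5.28 FPKM with MGH-CP1, from 91, 145, 154 and 146 fragments. Its vehicle control libraries were unlike each other, so the rise of 0.71 ± 0.15 (adjusted p = 0.00506) was 0.46 without vehicle control replicate 1 and 0.96 without vehicle control replicate 2. GABARAP was listed at 0.264 and 0.312 FPKM with vehicle and 0.782 and 0.522 FPKM with MGH-CP1, from 11, 13, 23 and 15 fragments, and without the level filter its difference was 0.35 (adjusted p = 0.111). CTD-2545G14.7, on the same strand, covers 85.0% of the GABARAP interval and was at 0 in all libraries, and since the counting rule for overlapping genes is not given in the sources used here, the level of GABARAP is uncertain.

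Composition of the family's mRNA, as listed, moved with these unequal rises. The shares take GABARAP at its listed level, which is uncertain, so they may not give the true composition. MAP1LC3B made up 57.8% and 55.7% of the summed ATG8 level with vehicle and 48.7% and 51.1% with MGH-CP1. GABARAPL1 made up 12.4% and 10.9% with vehicle and 15.8% and 14.5% with MGH-CP1. Neither share overlapped between groups. GABARAPL2 held 24.7% to 25.2% of the sum with vehicle and 25.4% to 26.6% with MGH-CP1. The further listed genes MAP1LC3B2, MAP1LC3C and GABARAPL3 held 0 to 15 fragments per library.

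**Figure D4:**
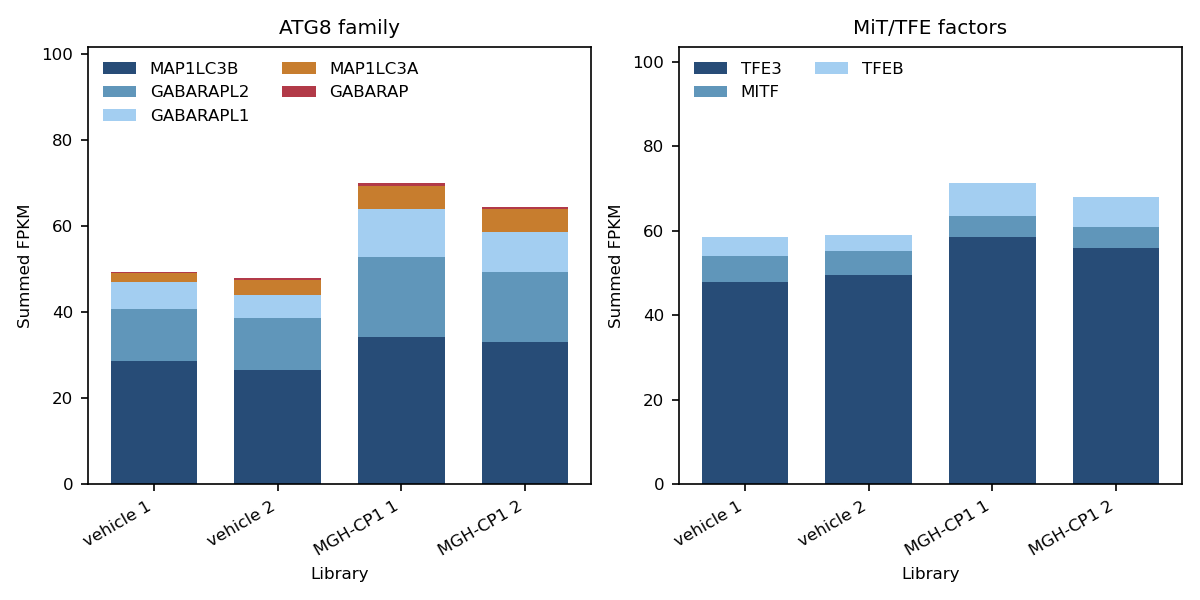
Summed FPKM in each library of the ATG8 family (left) and of the MiT/TFE factors without folliculin (right), with each gene as a stacked segment on an axis from 0. The ATG8 sum is 47.8 to 49.4 FPKM with vehicle and 64.5 to 70.1 FPKM with MGH-CP1, and TFE3 fills most of each bar on the right. GABARAP is drawn at its listed level, which is uncertain.

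Among the 5 cargo receptors 3 rose (60%) and none fell, beside 27.1% and 23.8% of all genes, with a median difference of 0.29. The other 2 passed in neither direction, and 1 of these 2, CALCOCO2, was called lower in the limma voom fit. The summed level of the 5 receptors was 298 and 290 FPKM with vehicle and 405 and 380 FPKM with MGH-CP1, a ratio of 1.33. SQSTM1 (ENSG00000161011, chromosome 5, 179233388 to 179265078, hg19) encodes p62, which links ubiquitinated cargo to LC3. It was at 75.8 and 80.0 FPKM with vehicle and 142 and 135 FPKM with MGH-CP1. Each MGH-CP1 library was far above each vehicle control library, and the rise of 0.82 ± 0.052, a ratio of 1.78 in mean FPKM, had the lowest adjusted p of the 37 genes (2.69e-05). By size of rise SQSTM1 ranked 403 of all genes tested. A pair of genes on the other strand overlap it: C5orf45, over 11.5% of the SQSTM1 interval, was at 2.12 and 2.18 FPKM with vehicle and 8.81 and 7.26 FPKM with MGH-CP1, and MGAT4B, over 1.78%, was at 80.5 and 84.2 FPKM with vehicle and 110 and 107 FPKM with MGH-CP1. Whether the counting used strand is not given in the sources used here, so fragments in these overlaps cannot be assigned to 1 gene with certainty.

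OPTN, optineurin, a receptor for ubiquitinated mitochondria and bacteria whose promoter is shown above, was at 63.9 and 60.3 FPKM with vehicle and 93.5 and 88.2 FPKM with MGH-CP1. The groups were well apart and the rise was 0.54 ± 0.054 (adjusted p = 1.37e-04). CCDC3 on the other strand, at 10.2 to 11.4 FPKM over the 4 libraries, shares 0.525% of the OPTN interval. NBR1, which works with p62 on ubiquitinated proteins, rose by 0.29 ± 0.050 (adjusted p = 0.00188). TAX1BP1, a receptor for protein aggregates, was at 83.0 and 76.8 FPKM with vehicle and 84.5 and 77.1 FPKM with MGH-CP1, a difference of 0.016 (adjusted p = 0.850). The groups overlapped, and the sign turned under median-ratio scaling, limma voom, and without vehicle control replicate 2 or MGH-CP1 replicate 1. CALCOCO2 (NDP52), a receptor for bacteria and mitochondria, differed by -0.061 (adjusted p = 0.396) and by -0.14 in the limma voom fit (adjusted p = 0.0444). With vehicle, SQSTM1 and TAX1BP1 stood at like levels, with a ratio of 0.913 and 1.04. With MGH-CP1 that ratio was 1.68 and 1.75, so SQSTM1 had the highest listed level of the 38 genes.

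All 4 of the MiT/TFE genes and folliculin passed the test, 3 as rises (75%) and MITF as a fall (25%). Over all genes tested 27.1% rose and 23.8% fell. The 4 genes kept their direction under every scaling tried. TFEB (ENSG00000112561, chromosome 6, 41651716 to 41703997, hg19), an activator of lysosomal and autophagy genes, was at 4.53 and 3.93 FPKM with vehicle and 7.97 and 7.12 FPKM with MGH-CP1. Its groups were far apart and the rise was 0.71 ± 0.092 (adjusted p = 4.85e-04), a ratio of 1.78 in mean FPKM. TFE3 (ENSG00000068323, chromosome X, 48886242 to 48901012, hg19), which shares targets with TFEB, was at 47.8 and 49.4 FPKM with vehicle and 58.5 and 56.0 FPKM with MGH-CP1. It rose by 0.23 ± 0.050 (adjusted p = 0.00592), less than TFEB on the log2 scale, and stayed the most abundant of the factors in each library. MITF (ENSG00000187098, chromosome 3, 69788586 to 70017488, hg19), the factor best known from melanocytes, was at 6.32 and 5.76 FPKM with vehicle and 4.95 and 4.86 FPKM with MGH-CP1. That fall of -0.25 ± 0.081 (adjusted p = 0.0304) was lost without vehicle control replicate 1 (-0.19, adjusted p = 0.183), MGH-CP1 replicate 1 (-0.26, adjusted p = 0.0821) or MGH-CP1 replicate 2 (-0.24, adjusted p = 0.09996).

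The ratio of TFEB to MITF level was 0.716 and 0.682 with vehicle and 1.61 and 1.47 with MGH-CP1, so the order of these factors differed between the groups. Of the summed level of TFEB, TFE3 and MITF, which was 58.6 and 59.1 FPKM with vehicle and 71.4 and 68.0 FPKM with MGH-CP1, TFEB made up 7.72% and 6.64% with vehicle and 11.2% and 10.5% with MGH-CP1. MITF made up 10.8% and 9.74% with vehicle and 6.93% and 7.14% with MGH-CP1. TFE3 held 81.5% to 83.6% of the sum in the 4 libraries, with groups that overlapped. FLCN, folliculin, which acts on Rag GTPases and keeps TFEB and TFE3 in the cytoplasm, was at 8.71 and 9.22 FPKM with vehicle and at 11.9 FPKM in both MGH-CP1 libraries. It rose by 0.37 ± 0.065 (adjusted p = 0.00204), and it shares 21.9% of its interval with MPRIP on the other strand, at 49.4 to 49.5 FPKM with vehicle and 52.2 to 52.5 FPKM with MGH-CP1.

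Further genes of the pathway were read from the same fit, in lists chosen with earlier results of these data known. Of the 30 genes of mTORC1, Rag and AMPK control, which set the activity of ULK1 and TFEB, 28 were tested, 8 rose (28.6%) and 6 fell (21.4%), shares near the 27.1% and 23.8% of all genes. LAMTOR2, of the Ragulator complex that anchors Rag GTPases to lysosomes, had the largest rise of the list, from 22.7 and 26.9 FPKM with vehicle to 36.7 and 37.6 FPKM with MGH-CP1 (0.57 ± 0.077, adjusted p = 6.07e-04). MTOR, the kinase of the complex, had the largest fall, from 14.999 and 14.3 FPKM to 9.51 and 10.5 FPKM (-0.51 ± 0.069, adjusted p = 5.89e-04). The libraries of both genes were apart, as were those of 39.8% of all genes tested in the upward and 37.4% in the downward direction. The other rises were in RRAGA, RRAGB, LAMTOR4, LAMTOR5, TSC1, TSC2 and ZKSCAN3, and the other falls in RHEB, PRKAA1, PRKAG2, PPP3CA and MCOLN1.

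Of 16 other genes of autophagosome formation 5 rose (31.3%) and 4 fell (25.0%), again near the 27.1% and 23.8% of all genes, with a median difference of 0.0031. WDR45 (WIPI4), a PI3P-binding partner of ATG2, was at 4.67 and 4.63 FPKM with vehicle and 8.37 and 8.70 FPKM with MGH-CP1, a rise of 0.75 ± 0.073 (adjusted p = 1.23e-04). BCL2, which binds Beclin-1, was at 2.11 and 2.12 FPKM with vehicle and 1.01 and 1.28 FPKM with MGH-CP1, a difference of -0.54 ± 0.12 (adjusted p = 0.00615). The groups of both genes were apart. Of 14 genes of autophagosome-lysosome fusion 5 rose (35.7%) and 1 fell (7.14%), beside 27.1% and 23.8% of all genes. VAMP8, the lysosomal SNARE that pairs with STX17, was at 96.3 and 100.3 FPKM with vehicle and 168 and 157 FPKM with MGH-CP1, a rise of 0.72 ± 0.053 (adjusted p = 4.19e-05). EPG5, a tether between the membranes, was at 9.94 and 10.1 FPKM with vehicle and 6.64 and 7.39 FPKM with MGH-CP1, a difference of -0.46 ± 0.074 (adjusted p = 0.00138). Both genes again had groups that did not overlap. Such separation goes with naming the called genes of largest rise and fall. Among all genes tested 39.8% lay wholly above and 37.4% wholly below the vehicle control libraries.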

How the data were processed

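RNA-seq of MDA-MB-231 cells given MGH-CP1 or vehicle control was analysed in 4 libraries, 2 per condition, grouped by the sample labels. FPKM were deposited by the authors for 48162 genes with coordinates and gene length. The submitters' processing notes name CASAVA 1.8, STAR and hg19, while the counting tool, its strand setting and the annotation release are not given in the sources used here. FPKM multiplied by length gave whole fragments for 100% of the values within 0.01, which served for depth, fragment numbers and voom. At these totals 1 fragment on a gene of 1 kb is 0.0392 to 0.0569 FPKM.

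On the log2(FPKM + 1) scale, 12080 genes whose FPKM averaged 1 or more were compared two-sidedly with limma 3.58.1 in R 4.3.3 (lmFit, trended eBayes, prior degrees of freedom 5.97). P-values were adjusted by Benjamini-Hochberg over these genes, with a threshold of 0.05. The study's methods use a per-gene Student test, tried here as an alternative. Sums, shares and ratios of FPKM were compared by exact permutation. Members and gene lists were chosen with earlier results of these data known. Values in every library are given for called members with a log2 difference of at least 0.3 and for ULK1, BECN1, ATG5, ATG7, MAP1LC3B, SQSTM1, TFEB, TFE3, MITF and FLCN, and of each further list the called genes with the largest rise and fall are named. Values of other members and genes, among them overlapping neighbours, were added after they were seen. The leukocyte and organelle receptor lists are used without 1 gene each, which is not reported here.

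Alternatives were no level filter or a minimum mean of 5 FPKM, a pseudocount of 0.1, quantile normalization or median-ratio scaling, a replicate block, limma without a trend or without shared variance, limma voom on fragments with TMM scaling, thinning to equal depth and leaving out each library. Replicates were compared by chi-square of fragments per degree of freedom, which was 4.38 between the vehicle control libraries and 3.16 between the MGH-CP1 libraries, so none was counted as a repeat of another. A simulated data set with 12056 genes tested held 197 changed genes, of which the fit found 173 (87.8%). Among its 190 calls, 8.95% fell on unchanged genes, a share above the threshold of 0.05. Far fewer genes changed there than the 6142 called in the main fit. The simulated rates therefore cannot be carried over to the calls reported here.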

Additional observations from a re-analysis of the deposited data

How the results depend on the processing

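The 23 calls among the autophagy genes kept their direction under all alternatives run. Only median-ratio scaling, quantile normalization, limma voom and thinning could have changed it. The filters, the replicate block and the variance settings leave the difference as it is. These 23 genes have groups without overlap, so neither another pseudocount nor leaving out 1 library can turn their sign. A test without shared variance called 0 of the autophagy genes higher and 0 lower, 0 of the further pathway genes (29 at an unadjusted p under 0.05) and 13 of all genes (4947 unadjusted), against 6142 in the main fit. Leaving out 1 library gave 4641 to 5540 calls over all genes, 17 to 19 rises and 2 to 4 falls among the autophagy genes, 26 to 31 calls among the further pathway genes against 36, and an ATG8 ratio of 1.33 to 1.44. limma voom gave 6 falls, adding UVRAG, ATG4C and CALCOCO2, and its split over all genes was 2776 higher and 4027 lower, against 3273 and 2869. Without the level filter 24878 genes were tested, of which 9.16% rose. In that fit 14 of the 38 autophagy genes rose and 22 further pathway genes were called. RB1CC1, BECN1, ATG14, WIPI2, ATG4B, MAP1LC3A and MITF were not called there. BECN1, ATG14 and WIPI2 also lost their calls under median-ratio scaling, limma voom and limma without the trend, and ATG14 under quantile normalization and equal depth. Signs turned only in genes that were not called. Under median-ratio scaling these were AMBRA1 (-0.044), ATG12 (-0.033) and TAX1BP1 (-0.038), and under quantile normalization AMBRA1 (-0.038), ATG7 (-0.0064), ATG10 (-0.039) and ATG12 (-0.0031). Under limma voom they were AMBRA1 (-0.074), ATG12 (-0.059) and TAX1BP1 (-0.062), and at equal depth AMBRA1 (-0.015). With 1 library left out the ranges that crossed 0 were -0.22 to 0.11 for ATG101, -0.016 to 0.023 for AMBRA1, -0.14 to 0.015 for ATG4A, -0.11 to 0.031 for ATG4D, -0.015 to 0.049 for ATG12 and -0.049 to 0.081 for TAX1BP1. The cause was not tested. Depth limits GABARAP most, at 11 to 23 fragments.

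With the replicate number as a block, 6518 genes were called in all, with 20 rises and 4 falls among the autophagy genes and 36 further pathway genes; ATG4C was the added fall. The labels give the numbers no shared origin. Same-numbered libraries deviated together only weakly (r = 0.0777 across 12080 genes, which are not independent replicates). With 2 libraries per condition this cannot show whether they share a culture or batch, so whether they are paired is unknown.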

Other observations

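Receptors that direct organelles, ferritin or glycogen to autophagosomes, with the kinase PINK1, were read as a further list. Of 15 genes 13 were tested, 6 rose (46.2%) and 1 fell (7.69%), with a median difference of 0.12, beside 27.1% of all genes that rose and 23.8% that fell. CALCOCO1, a receptor for the endoplasmic reticulum and Golgi, was at 7.08 and 7.04 FPKM with vehicle and 20.4 and 19.0 FPKM with MGH-CP1, a rise of 1.36 ± 0.065 (limma, adjusted p = 1.22e-05), which is above that of any of the 37 autophagy genes tested. Its libraries were far apart between the groups. Of the mitophagy receptors, BNIP3 was at 161 and 169 FPKM with vehicle and 265 and 254 FPKM with MGH-CP1 and rose by 0.65 ± 0.049, and BNIP3L rose by 0.38 ± 0.051. FKBP8, an LC3-binding protein of mitochondria, rose by 0.57 ± 0.063, BCL2L13 by 0.20 ± 0.065 and PINK1, the kinase that marks damaged mitochondria, by 0.19 ± 0.059. PHB2, a receptor of the inner mitochondrial membrane, was at 100.3 and 99.6 FPKM with vehicle and 82.5 and 88.1 FPKM with MGH-CP1, the 1 fall of the list at -0.23 ± 0.050 (adjusted p = 0.00656). The other 6 genes tested did not pass the threshold, from SEC62 (-0.087), NCOA4 (-0.076) and FUNDC1 (-0.066) to RTN3 (0.0073), CCPG1 (0.097) and TEX264 (0.12). RETREG1 and STBD1 lay under the level filter. BNIP3, BNIP3L, FKBP8, BCL2L13, PINK1 and the genes that did not pass were named after their values were seen.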
